A study of Mus musculus with 2 samples.

Results

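Natural killer (NK) cells with no transcript of 3 late maturation markers were examined in B16-OVA melanomas of mice given creatine or vehicle. In single-cell RNA-seq of tumor-infiltrating leukocytes, a cell was taken as NK when it held at least 2 UMIs (unique molecular identifiers, each counting 1 captured transcript) of *Ncr1* and *Klrb1c* together, at most 1 UMI of *Cd3d*, *Cd3e* and *Cd3g*, none of *Cd8a*, *Cd8b1* or *Csf1r*, and at most 25% mitochondrial UMIs. Cells of this gate with 0 UMI of *Klrg1*, *S1pr5* and *Itgam* are called marker-negative here, and cells with at least 2 such UMIs are called marker-positive. Membership was thus chosen by the measured UMIs of these genes, and their values are not findings. The marker-negative cells numbered 990 of the 13470 cells kept, with 419 from control tumors and 571 from creatine tumors. The marker-positive cells numbered 56 and 205, and a further 106 and 220 NK cells held exactly 1 UMI of the 3 markers. Near the limits of the gate, 65 control and 38 creatine marker-negative cells held exactly 2 UMIs of *Ncr1* and *Klrb1c*, while 71 and 26 cells that met every other condition held 1 and stayed out.

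The tumors came from male C57BL/6J (B6) mice of 8 to 12 weeks bearing subcutaneous B16-OVA, a mouse melanoma line that expresses the model antigen ovalbumin. The creatine group received 10.5 mg creatine per day by intraperitoneal injection from day 3, and the control group received PBS. In each group 4 tumors were pooled on day 14, live CD45.2+ cells were sorted, and 1 droplet library was made from about 10000 cells. With 1 library per group there is no replicate and no test of treatment is possible, and every 95% interval in parentheses below covers counting error only.

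Mouse NK cells are generally described as maturing from CD27-high cells, which express *Il7r*, *Kit* and *Tcf7*, toward CD11b+ cells (CD11b is encoded by *Itgam*) that carry the inhibitory lectin receptor KLRG1 and use the sphingosine receptor S1PR5 to leave the marrow and lymph nodes. Granzyme A, perforin and the transcription factors *Zeb2* and *Klf2* accompany the later stages. Type 1 innate lymphoid cells (ILC1) share *Ncr1* and *Klrb1c* with NK cells. They are known as tissue-resident cells that carry CD49a (*Itga1*) and *Cxcr6*, express the death ligand TRAIL (*Tnfsf10*), and have little or no *Eomes*, the T-box factor of conventional NK cells.

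Marker-negative cells were of modest depth, so the absence of 3 rarely captured transcripts does not by itself show absence of the proteins. The median was 3999 UMIs per cell in control and 5854 in creatine, against 7688 and 8475 over all cells kept. In the marker-positive cells the medians were 4379 and 5152 UMIs. *Itgam* was the sole marker in 14 of the 56 control and 48 of the 205 creatine marker-positive cells, and it is also a myeloid transcript, present in 39.2% of control and 26.5% of creatine macrophage-gated cells thinned at random to 2000 UMIs each. The 2 libraries had 30 cell barcodes in common, of which 0 belonged to a marker-negative cell.

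The pool as a whole held transcripts of NK cells, although no T cell pool was set beside it. *Eomes* was at 201 CPM (UMIs per 1000000 UMIs of the pool) in control marker-negative cells and 230 CPM in creatine. *Klrk1*, encoding the activating receptor NKG2D, was at 1151 and 1099 CPM. *Tyrobp*, the adaptor of many activating NK receptors, was at 1910 and 2175 CPM, a transcript that macrophages hold at like levels. The T-box factor *Tbx21* was at 73.6 and 90.7 CPM. *Eomes* appeared in 33.2% (28.6 to 38.1) of control and 37.5% (33.5 to 41.7) of creatine marker-negative cells thinned to 2000 UMIs, and in 0.135% and 0% of macrophage-gated cells (median 12630 and 17749 UMIs before thinning), which should lack it. Thinning left out 25 control and 14 creatine marker-negative cells of under 2000 UMIs. The ILC3 cytokine transcripts *Il22* and *Il17a* had 0 UMI in both libraries. *Trac*, the T cell receptor alpha constant gene, was at 21.9 and 19.0 CPM, while *Trbc1* reached 529 and 528 CPM. *Trbc1* was at 489 and 440 CPM in the marker-positive cells. At least 2 UMIs of T cell receptor constant genes were found in 78.8% of control and 90.4% of creatine marker-negative cells, and in 83.9% and 82.4% of marker-positive cells. All 13 T cell markers summed to 990 and 1022 CPM in marker-negative cells and 853 and 838 CPM in marker-positive cells, with *Trbc1* the most abundant. The 11 ILC2 and ILC3 genes summed to 92.8 and 84.7 CPM, led by *Gata3*, which NK cells also express.

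Transcripts of other cells were present at low level and unevenly. The 12 monocyte and macrophage markers summed to 374 CPM in control marker-negative cells (702 UMIs, *Apoe* the most abundant) and to 170 CPM in creatine (626 UMIs). In marker-positive cells the same sum was 1191 CPM in control (395 UMIs) and 160 CPM in creatine (215 UMIs). A single control marker-positive cell held 78.2% of that pool's *Apoe* UMIs and 83.3% of its *C1qb* UMIs. The control marker-positive pool, with its 56 cells, was the smallest of the 4. The melanocyte transcript *Dct* was at 20.3 and 10.6 CPM in marker-negative cells and 9.05 and 11.2 CPM in marker-positive cells. Dendritic cell markers summed to 337 and 153 CPM in marker-negative cells, and B cell markers to 157 and 144 CPM. Neutrophil markers came to 18 and 25 UMIs. The part of these transcripts in the comparisons below was not tested, except where values without the cells that carry them are given.

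The first comparison was how much of the NK compartment was marker-negative in each library. Marker-negative cells made up 72.1% (68.3 to 75.7) of the 581 NK-gated cells in control and 57.3% (54.2 to 60.4) of the 996 in creatine. As a share of all cells kept, they were 5.79% (5.26 to 6.35) in control and 9.17% (8.46 to 9.91) in creatine. Marker-positive cells were 0.773% (0.585 to 1.00) of all cells kept in control and 3.29% (2.86 to 3.76) in creatine. Both classes were thus a larger share of the creatine library. How many NK cells each tumor held, and how the 4 tumors of a pool differed, was not measured.

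These shares differed with depth. Below 2000 UMIs, 86.2% of 29 control and 82.4% of 17 creatine NK cells were marker-negative. Of NK-gated cells with 2000 to 4000 UMIs, 74.3% (68.4 to 79.6) of 249 control cells and 47.1% (39.8 to 54.5) of 189 creatine cells were marker-negative. With 4000 to 8000 UMIs the shares were 71.8% (65.8 to 77.2) of 255 and 58.3% (54.2 to 62.4) of 576. Of cells with 8000 UMIs or more they were 54.2% (39.2 to 68.6) of 48 and 61.7% (54.8 to 68.2) of 214, with overlapping intervals. The lower share in creatine was therefore seen in the middle bins, which hold most of the NK cells, and not among the deepest cells. When every cell was first thinned to 2000 UMIs and then gated, the shares were 85.1% in control and 74.1% in creatine. Thinning also eased the limits on Cd3, Cd8 and *Csf1r* UMIs, so cells outside the NK gate at full depth could enter. Marker-negative cells then numbered 387 in control and 608 in creatine, against 419 and 571 in the main gate. Leaving *Itgam* out of the marker set gave 86.1% and 75.6%.

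**Figure D1:**
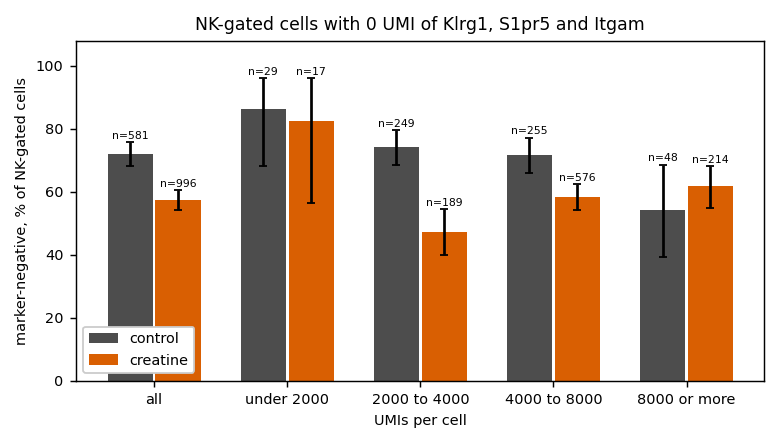
Marker-negative cells as a percentage of NK-gated cells (y axis) for all cells and for 4 bins of UMIs per cell (x axis), in the control (grey) and creatine (orange) libraries; bars are the share, whiskers the exact 95% binomial interval and n the NK-gated cells in the bin. The control share is above the creatine share between 2000 and 8000 UMIs, at 74.3% against 47.1% and 71.8% against 58.3%, and not at 8000 UMIs or more.

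Marker-negative cells were then set against marker-positive cells within each library. The gate itself made this contrast, so the values describe the 2 classes and test nothing. Transcripts associated with immature NK cells were higher in marker-negative cells in both libraries, and in the creatine library transcripts of late maturation outside the gate were lower. Of all genes with at least 50 UMIs in the pair of pools, 12% were at least 1.5-fold higher in marker-negative cells and 7.1% at least 1.5-fold lower in control (5128 genes). In creatine these shares were 4.39% and 5.7% (7452 genes).

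In the immature NK list, 8 of the 13 genes with enough UMIs in control and 9 of 14 in creatine were at least 1.5-fold higher in marker-negative cells, and 0 and 1 (*Il2ra*) at least 1.5-fold lower, with medians of 0.61 and 0.73 on the log2 scale against 0.03 and -0.07 over all genes. *Xcl1*, the chemokine that draws XCR1+ dendritic cells, was at 894 CPM in control and 1142 CPM in creatine marker-negative cells, and at 220 and 520 CPM in marker-positive cells. *Emb*, encoding the adhesion protein embigin, was at 357 and 317 CPM against 160 and 146 CPM. *Ltb*, encoding lymphotoxin beta, was at 353 and 363 CPM against 190 and 139 CPM. *Tcf7*, the transcription factor TCF-1, was at 141 and 110 CPM against 93.5 and 64.2 CPM. For each of these 4 genes both marker-negative pools were above both marker-positive pools.

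*Il7r*, the interleukin-7 receptor chain, was rarer. It was at 73.6 CPM (138 UMIs) in control and 40.4 CPM (149 UMIs) in creatine marker-negative cells, and at 27.1 CPM (9 UMIs) and 2.24 CPM (3 UMIs) in marker-positive cells. Macrophage-gated cells also held *Il7r*, at 87.2 and 66.1 CPM. Single marker-negative cells held up to 8 *Il7r* UMIs in control and 14 in creatine.

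*Cd27*, the classical marker of the less mature stages, was less than 1.5-fold higher in marker-negative cells. It was at 157 CPM in control and 138 CPM in creatine marker-negative cells, and at 115 and 97.8 CPM in marker-positive cells. The log2 ratio was 0.46 (-0.03 to 0.99) in control and 0.50 (0.22 to 0.79) in creatine. *Cd27* was seen in 29.9% (25.5 to 34.7) and 23.3% (19.9 to 27.1) of thinned marker-negative cells, in 25.5% (14.7 to 39.0) and 15.1% (10.5 to 20.8) of thinned marker-positive cells, and in 1.76% and 1.31% of macrophage-gated cells. Without thinning the marker-negative shares were 48.2% and 52.7%. Without thinning, *Cd27* was seen with neither *Itga1* nor *Cxcr6* in 168 control and 231 creatine marker-negative cells, and with either gene in 34 and 70. Over all marker-negative cells, 349 of the 419 in control and 457 of the 571 in creatine showed neither gene. The counts with *Cd27* lie near that share and do not set these cells apart.

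Of the 16 maturation genes outside the gate, all 16 were lower in creatine marker-negative cells, 9 of them by at least 1.5-fold, with a median log2 ratio of -0.86. *Cma1*, encoding a mast cell chymase, was at 14.7 CPM in creatine marker-negative cells and at 113 CPM in marker-positive cells, a log2 ratio of -2.94 (-3.42 to -2.49). *Klf2* was at 121 CPM against 393 CPM, a log2 ratio of -1.70 (-1.89 to -1.52). *Zeb2* was at 72.5 CPM against 232 CPM. Creatine NK cells with exactly 1 marker UMI lay between the 2 classes for all 3, at 54.4 CPM of *Cma1*, 211 CPM of *Klf2* and 130 CPM of *Zeb2*. *Cx3cr1*, a chemokine receptor of circulating mature cells, was at 4.61 CPM against 30.6 CPM.

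The cytotoxic genes of that list were abundant in both classes. In creatine, *Gzma*, encoding granzyme A, was at 5483 CPM in marker-negative cells, 7696 CPM with 1 marker UMI and 10896 CPM in marker-positive cells. *Gzmb* was at 1177, 1312 and 2188 CPM, and *Prf1*, encoding perforin, at 797, 1123 and 1480 CPM. *Ccl5*, an effector chemokine, was at 4614, 6380 and 11190 CPM. The marker-negative cells therefore held each of these transcripts at a lower level, but none was scarce in them.

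In control the same list had a median log2 ratio of -0.22, with 11 of 14 genes below 0 and 1 at least 1.5-fold lower. *Klf2* was at 113 CPM in control marker-negative and 87.5 CPM in marker-positive cells, a log2 ratio of 0.36 (-0.20 to 0.98). *Zeb2* was at 75.8 and 78.4 CPM, and *Cma1* at 14.9 and 15.1 CPM. *Gzma* was at 4546 and 5531 CPM. Marker-negative cells of the 2 libraries were thus close to each other for *Klf2*, *Zeb2* and *Cma1*, while the creatine marker-positive pool stood above the other 3. With *Itgam* left out of the gate, only 18 control cells were marker-positive and the list median in control was 0.26. With the gate read after thinning, which also left 18 such cells, it was -0.73.

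**Figure D2:**
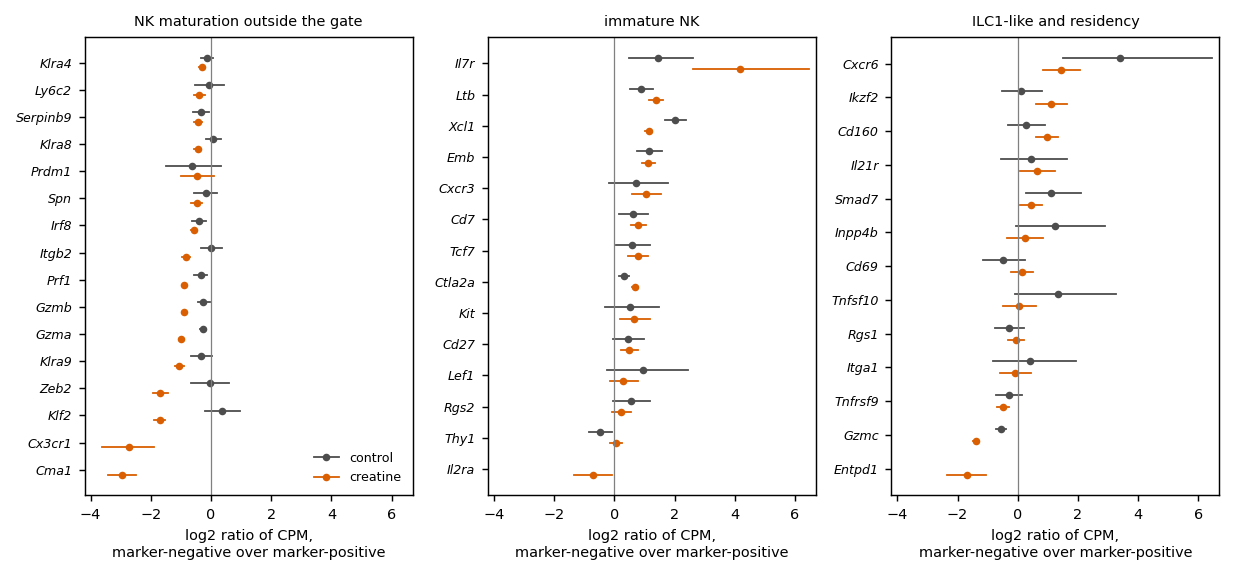
Log2 ratio of CPM, marker-negative over marker-positive NK cells (x axis), for each gene of 3 lists (y axis) with at least 50 UMIs in the pair of pools, in control (grey) and creatine (orange); points are the ratio and lines the exact 95% interval from counting. Immature NK genes lie mostly to the right in both libraries (medians 0.61 and 0.73), and maturation genes lie to the left in creatine (median -0.86) and near 0 in control (median -0.22).

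ILC1-like and residency genes were mixed. The median log2 ratio of marker-negative to marker-positive cells was 0.34 in control (4 of 12 genes at least 1.5-fold higher, 0 lower) and 0.14 in creatine (4 of 13 higher, 2 lower). The creatine median was -0.26 with *Itgam* left out of the gate and 1.11 with the gate read after thinning, so its direction rests on how the gate is drawn. The control median was -0.00 with equal weight for each cell. *Cxcr6* was at 63.5 CPM in control (119 UMIs) and 54.6 CPM in creatine (201 UMIs) marker-negative cells, against 6.03 CPM (2 UMIs) and 20.2 CPM (27 UMIs) in marker-positive cells. *Itga1* was at 24.0 and 32.6 CPM against 18.1 and 34.3 CPM, log2 ratios of 0.41 (-0.83 to 1.93) and -0.08 (-0.58 to 0.45). *Gzmc*, encoding granzyme C, was lower in marker-negative cells, at 868 and 729 CPM against 1273 and 1915 CPM. One creatine marker-positive cell held 25.4% of that pool's *Gzmc* UMIs, and 1 control cell held 39.6%. Residency factor *Zfp683* (Hobit) had 2 UMIs in each marker-negative pool and none in the marker-positive pools, and *Itgae* had 4 and 5 UMIs.

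By a rule of size, the genes most higher in marker-negative cells in both libraries were *Tmem176b*, *Ahr*, *Tmem176a*, *Il7r*, *Cxcr6*, *Gpr183*, *Jaml*, *Sult2b1*, *Btbd11* and *Xcl1*. Of 5118 genes with enough UMIs in both libraries, 0.879% were at least 1.5-fold higher in both. *Tmem176b*, a membrane channel gene, was at 87.5 CPM in control and 60.3 CPM in creatine marker-negative cells, and at 12.1 and 11.9 CPM in marker-positive cells. Its neighbor *Tmem176a*, transcribed from the opposite strand (chr6:48840919-48847071 on GRCm38, overlapping *Tmem176b* at chr6:48833818-48841496), was at 58.1 and 49.7 CPM against 9.05 and 14.9 CPM. Reads from the shared stretch could be assigned to either gene only by strand. *Ahr*, encoding the aryl hydrocarbon receptor, was at 46.4 and 37.5 CPM against 12.1 and 8.96 CPM. *Gpr183*, the oxysterol receptor EBI2, was at 30.4 and 27.7 CPM against 12.1 and 3.73 CPM, which rests on 4 and 5 UMIs in the marker-positive pools.

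The genes most lower in both libraries were *Ccl1*, *Tmsb15a*, *Gadd45b*, *Hist1h1b*, *Cdca3*, *Nusap1*, *Ccdc184*, *Rrm2*, *Hist1h2ap* and *Birc5*, mostly transcripts of dividing cells. In that direction 1.09% of genes were at least 1.5-fold lower in both. One marker-positive cell held 115 of the 121 *Ccl1* UMIs in control and another held 174 of the 191 in creatine, and 5 cells held 96.2% and 91.8% of the *Birc5* UMIs. When NK cells with at least 5 UMIs of macrophage and dendritic cell genes were left out, *Hist1h1b* and *Hist1h2ap* were higher in control marker-negative cells (log2 ratios of 1.70 and 1.07) instead of lower (-1.70 and -1.59). With the gate read after thinning, *Ccl1*, *Gadd45b* and *Ccdc184* were higher in marker-negative cells of both libraries, at 3.69, 1.70 and 1.98 in control and 2.91, 1.05 and 2.60 in creatine.

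The dividing-cell list of 18 genes was lower in marker-negative cells in both libraries, with 14 of 17 genes at least 1.5-fold lower in each and medians of -1.18 and -0.91. Yet the thinned share of cells with *Mki67*, the proliferation antigen Ki-67, was 3.05% (1.58 to 5.26) in control marker-negative and 5.45% (1.14 to 15.1) in marker-positive cells, and 3.23% (1.93 to 5.06) and 4.39% (2.03 to 8.17) in creatine. The intervals of the 2 classes overlapped in each library. UMIs of at least 2 dividing-cell genes were found in 69.2% (64.5 to 73.6) of control and 77.1% (73.4 to 80.4) of creatine marker-negative cells, and in 85.7% (73.8 to 93.6) and 77.6% (71.2 to 83.1) of marker-positive cells, without thinning.

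Interferon-stimulated genes were higher in marker-negative cells. Of these 22 genes, 15 in control and 19 in creatine had enough UMIs, 7 and 10 were at least 1.5-fold higher and 0 at least 1.5-fold lower, with medians of 0.57 and 0.65. In creatine, *Isg15*, a ubiquitin-like modifier, was at 73.3 CPM in marker-negative and 35.8 CPM in marker-positive cells, and *Bst2*, encoding tetherin, was at 111 and 59.7 CPM.

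The remaining lists differed less evenly between the classes. The 15 NK identity genes had median log2 ratios of 0.08 in control and -0.11 in creatine. *Klrb1b*, an inhibitory lectin receptor, was the sole one at least 1.5-fold higher in both libraries, at 314 and 235 CPM in marker-negative against 175 and 148 CPM in marker-positive cells. Activating and inhibitory receptors had medians of -0.11 and -0.23, cytotoxic granule genes and death ligands -0.21 and -0.28, and cytokine receptors 0.32 and 0.07. Homing and adhesion genes were at 0.27 and 0.15, transcription factors at 0.32 and -0.00, and immediate early and heat shock genes at -0.12 and -0.12. Cytokines and chemokines had medians of 0.55 and 0.24, with 4 of 8 genes in control and 4 of 10 in creatine at least 1.5-fold higher in marker-negative cells, *Xcl1* and *Ltb* among them in both. *Ccl5* was the one gene at least 1.5-fold lower in creatine, and with it the summed level of the list was 7076 CPM in marker-negative and 12864 CPM in marker-positive cells there, against 6986 and 6855 CPM in control. Glycolysis genes had medians of -0.47 and -0.24, with 15 of 16 in control and 14 of 17 in creatine below 0 and 5 and 1 at least 1.5-fold lower. In the control marker-positive pool 5 of the 56 cells held 55.1% of the *Gapdh* UMIs and 54.1% of the *Pkm* UMIs. In the cytotoxic list, 4 of 12 genes were at least 1.5-fold lower in creatine, namely *Gzma*, *Gzmb*, *Gzmc* and *Prf1*. *Klra3*, an inhibitory Ly49 receptor, was lower in creatine marker-negative cells, at 99.9 against 203 CPM, and was at 123 against 148 CPM in control. Close homologs in the *Klra* cluster can share reads, so the level of any single *Klra* gene is uncertain.

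Within the marker-negative cells, those with a UMI of *Itga1* (chr13:114953096-115101964) or *Cxcr6* (chr9:123806475-123811760) stood apart. They were 70 of 419 cells in control, 16.7% (13.3 to 20.6), and 114 of 571 in creatine, with an interval of 16.8% to 23.5%. Both genes together were seen in 11 control and 30 creatine cells. These cells were deeper than the rest, with medians of 4702 against 3887 UMIs in control and 7161 against 5628 UMIs in creatine. At 2000 UMIs per cell, *Cxcr6* was seen in 6.35% (4.15 to 9.22) of control and 7.72% (5.64 to 10.3) of creatine marker-negative cells and in 0.676% and 1.96% of macrophage-gated cells. *Itga1* was seen in 4.06% (2.34 to 6.51) and 4.67% (3.07 to 6.76), against 1.49% and 0.980% of macrophage-gated cells. Thinned marker-positive cells showed *Cxcr6* in 1.82% (0.0460 to 9.72) and 2.93% (1.08 to 6.26), and *Itga1* in 1.82% and 4.88%.

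The pair was used to split the cells, so only other genes are compared. With at least 50 UMIs required, 6.65% of 4618 genes in control were at least 1.5-fold higher in cells with either transcript and 8.81% at least 1.5-fold lower, and in creatine these were 6.28% and 6.19% of 6596 genes. Of the other ILC1-like and residency genes with enough UMIs, 7 of 10 in control and 6 of 10 in creatine were at least 1.5-fold higher and 1 and 0 at least 1.5-fold lower, with medians of 1.10 and 0.67. The lower gene was *Cd69*, an activation and retention marker, at 27.3 against 55.0 CPM in control and 61.4 against 80.1 CPM in creatine. *Inpp4b*, a phosphoinositide phosphatase, was at 107 CPM in control cells with either transcript and 15.6 CPM in cells without, a log2 ratio of 2.77 (2.01 to 3.57). In creatine it was at 76.8 and 11.9 CPM, 2.69 (2.07 to 3.33). *Tnfsf10* was at 74.4 against 18.3 CPM in control and 64.7 against 20.6 CPM in creatine. *Gzmc* was at 3131 against 248 CPM and 2216 against 240 CPM, although 5 cells held 66.7% of the control and 51.9% of the creatine marker-negative *Gzmc* UMIs. *Ikzf2* (Helios) and *Il21r* were also higher in both libraries.

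Several but not all genes from the marker-negative against marker-positive contrast were higher in these cells. *Tcf7* was lower in them, at 74.4 against 160 CPM in control and 80.1 against 120 CPM in creatine, as was *Sult2b1* in creatine, at 14.3 against 31.7 CPM. *Tmem176b* was at 278 CPM in control cells with *Itga1* or *Cxcr6* and 35.3 CPM in cells without, and at 162 and 26.7 CPM in creatine. *Tmem176a* was at 166 against 28.5 CPM and 148 against 17.3 CPM. *Gpr183* was at 96.8 against 12.2 CPM and 69.1 against 14.1 CPM, and *Il7r* at 171 against 46.9 CPM and 88.8 against 24.5 CPM. *Jaml*, a junctional adhesion protein of leukocytes, was at 94.3 against 22.4 CPM and 75.7 against 26.3 CPM. *Rora*, a nuclear receptor of innate lymphoid cells, was at 89.3 against 29.9 CPM and 41.7 against 17.7 CPM. *Xcl1* was at 2047 against 578 CPM in control and 1540 against 1011 CPM in creatine. *Cd226*, encoding the activating receptor DNAM-1, was at 69.5 against 31.9 CPM and 99.8 against 37.1 CPM.

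The same cells held lower levels of *Eomes* and of maturation genes, while the NK identity list differed less, with 3 of 15 genes at least 1.5-fold lower in each library, 0 and 1 higher, and medians of -0.22 and -0.15. *Eomes* was at 91.8 CPM in control cells with either transcript and 231 CPM in cells without, a log2 ratio of -1.33 (-1.86 to -0.84), and at 128 and 263 CPM in creatine, -1.04 (-1.33 to -0.75). *Eomes* was thus lower but not absent. *Tbx21* was at 99.2 against 66.6 CPM in control and 105 against 85.8 CPM in creatine. *Gzma* was at 1692 against 5327 CPM in control and 2702 against 6398 CPM in creatine. *Klf2* was at 47.1 against 130 CPM and 46.1 against 145 CPM. *Zeb2* was at 47.1 against 83.6 CPM and 40.6 against 83.0 CPM. Of the maturation list, 7 of 14 genes in control and 8 of 15 in creatine were at least 1.5-fold lower. The exception in both libraries was *Ly6c2*, at 246 against 101 CPM and 464 against 178 CPM.

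Ly49 receptors and an integrin of conventional NK cells were also lower. *Klra4* was at 273 against 829 CPM in control and 308 against 777 CPM in creatine, and *Klra8* at 166 against 548 CPM and 209 against 469 CPM. *Itga2*, encoding that integrin, CD49b, was at 29.8 against 73.4 CPM and 35.1 against 85.1 CPM. *Cd27* was at 122 against 167 CPM in control and 135 against 139 CPM in creatine.

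Dividing-cell transcripts and *Cd74* also moved with this split. In control 9 of 11 dividing-cell genes were at least 1.5-fold higher and 1 at least 1.5-fold lower (median log2 ratio 1.18). In creatine 8 of 12 were higher and 0 lower by that mark (median 0.70). *Mki67* was at 139 CPM in control cells with *Itga1* or *Cxcr6* against 18.3 CPM in cells without, and at 104 against 35.0 CPM in creatine, but 5 cells held 63.9% and 67.2% of the marker-negative *Mki67* UMIs. *Cd74*, a transcript of antigen-presenting cells, was at 275 against 148 CPM and 151 against 48.0 CPM, whereas *Lyz2*, a myeloid lysozyme gene, was at 42.2 against 75.4 CPM and 42.8 against 48.0 CPM. With NK cells of 5 or more dividing-cell genes left out, the log2 ratio of *Inpp4b* was 2.67 in control and 2.90 in creatine, and that of *Eomes* was -1.21 and -0.93. With cells of at least 5 macrophage and dendritic cell UMIs left out they were 2.63 and 2.66 for *Inpp4b*, and -0.97 and -0.84 for *Eomes*. Within cells of 4000 to 8000 UMIs they were 3.66 and 2.71, and -1.68 and -0.69. In that range *Klf2* was at -0.33 and -0.44, short of 1.5-fold, and *Gzmc* was at 4.50 in control and 1.14 in creatine.

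**Figure D3:**
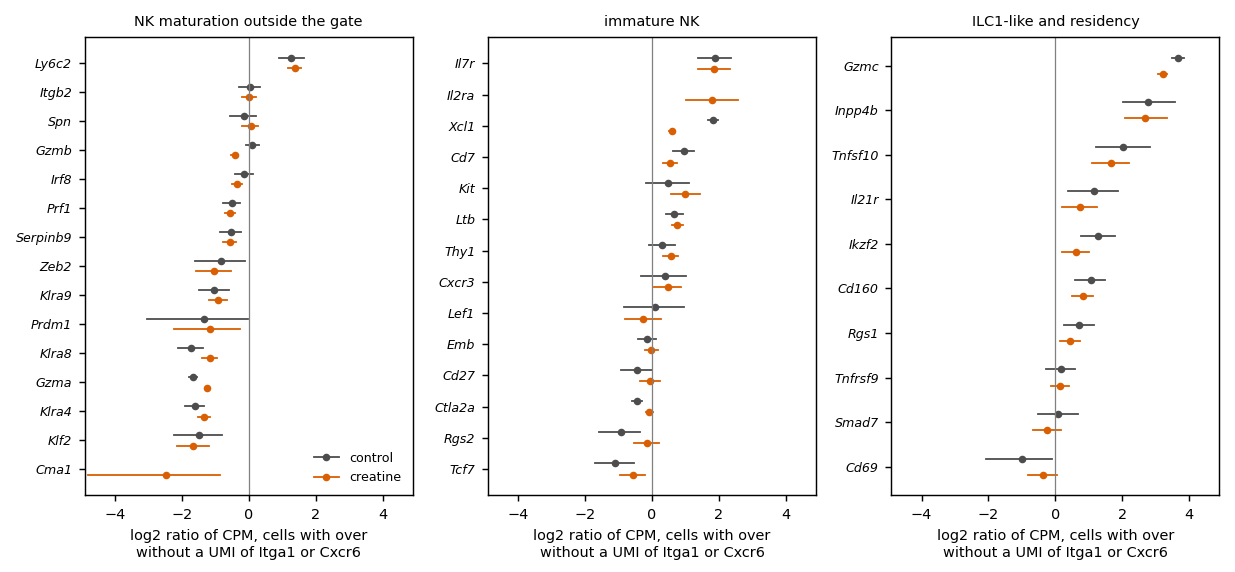
Log2 ratio of CPM in marker-negative cells with over those without a UMI of Itga1 or Cxcr6 (x axis), for each gene of 3 lists (y axis) with at least 50 UMIs and leaving out those 2 genes, in control (grey) and creatine (orange); points are the ratio and lines the exact 95% interval from counting. Gzmc, Inpp4b and Tnfsf10 lie to the right in both libraries and Klf2, Klra4, Gzma and Klra8 to the left, with Ly6c2 the one maturation gene well to the right.

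The last comparison was between the 2 libraries within marker-negative cells. Interferon-stimulated genes were higher in creatine as a list, *Gzmb* and *Prf1* were higher, and several histone transcripts were lower. The dividing-cell list was lower with all cells (median -0.36, 6 of 17 genes at least 1.5-fold lower) but not without cells holding macrophage and dendritic cell RNA (0.09) or at 4000 to 8000 UMIs (0.02). Of 7699 genes with at least 50 UMIs in the 2 pools, 4% were at least 1.5-fold higher in creatine and 3.74% at least 1.5-fold lower, with a median log2 ratio of 0.02.

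Among interferon-stimulated genes, 18 of 21 were above 0 and 4 at least 1.5-fold higher in creatine, with a median log2 ratio of 0.36. *Isg15* was at 32.5 CPM in control and 73.3 CPM in creatine marker-negative cells, a log2 ratio of 1.17 (0.77 to 1.60). Without cells of 2 or more dividing-cell genes, which left 129 control and 131 creatine cells, it was 0.21, and without any Cd3 UMI it was 0.75. *Usp18*, the protease that removes ISG15 from proteins, was at 10.7 and 26.9 CPM. *Bst2* was at 62.4 and 111 CPM, and *Zbp1*, a nucleic acid sensor, at 84.3 and 132 CPM. *Ifit1* was level at 23.5 and 23.6 CPM, and *Ifi27l2a* was the one gene at least 1.5-fold lower, at 46.9 and 30.9 CPM. Cells outside the NK gate differed the same way, with a list median of 0.60 and *Isg15* at a log2 ratio of 0.55 (0.52 to 0.59). The thinned share of marker-negative cells with *Isg15* was 4.32% (2.53 to 6.82) in control and 8.62% (6.42 to 11.3) in creatine, and macrophage-gated cells, which express the gene themselves, showed it in 28.6% and 49.7%. Single marker-negative cells held up to 9 *Isg15* UMIs in control and 23 in creatine.

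**Figure D4:**
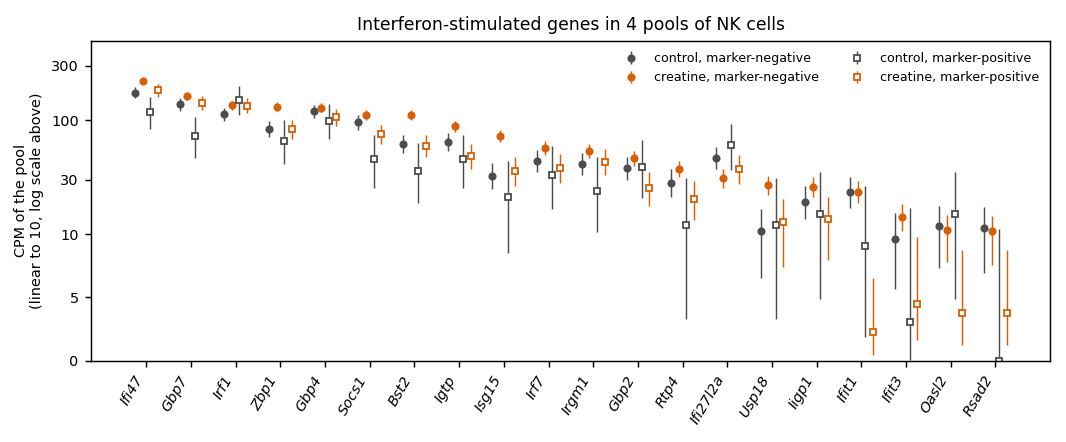
CPM (y axis, linear to 10 and log scale above) of interferon-stimulated genes with at least 50 UMIs in the marker-negative cells of both libraries together (x axis), in marker-negative (filled circles) and marker-positive (open squares) NK cells of the control (grey) and creatine (orange) libraries, with exact 95% Poisson intervals. Creatine marker-negative cells are the highest pool for genes such as Isg15 (73.3 CPM), Bst2 (111 CPM) and Zbp1 (132 CPM).

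*Gzmb* and *Prf1* were the 2 of 12 cytotoxic genes at least 1.5-fold higher in creatine marker-negative cells, and the list median was 0.14. *Gzmb* was at 641 CPM in control and 1177 CPM in creatine, a log2 ratio of 0.88 (0.78 to 0.97), and *Prf1* at 525 and 797 CPM, 0.60 (0.50 to 0.71). *Irf8*, a transcription factor, was at 390 and 687 CPM, and *Ly6c2* at 132 and 249 CPM. *Gzma* differed less, at 4546 and 5483 CPM. These 4 genes other than *Gzma* were the ones at least 1.5-fold higher among 15 maturation genes, whose median log2 ratio was 0.14. In marker-positive cells *Gzmb* was at 763 and 2188 CPM. *Gzmc*, of the cytotoxic list, was at 868 and 729 CPM in marker-negative cells. These rises were not particular to marker-negative cells. Outside the NK gate the maturation median was 0.56, with 7 of 16 genes at least 1.5-fold higher, and the cytotoxic median was 0.17. In marker-positive cells the maturation median was 0.99, with 10 of 15 genes at least 1.5-fold higher, and the cytotoxic median was 0.59.

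Immature NK genes had a median of -0.14, as far from 0 as the maturation median but below it. Of these 14 genes, 0 were at least 1.5-fold higher and 1 was at least 1.5-fold lower. That gene was *Il7r*, at 73.6 CPM in control and 40.4 CPM in creatine, a log2 ratio of -0.86 (-1.21 to -0.52). *Cd27* was at 157 and 138 CPM and *Tcf7* at 141 and 110 CPM. ILC1-like and residency genes had a median of 0.01. Creatine metabolism genes were scarce: *Slc6a8*, the creatine transporter, had 3 UMIs in control and 2 in creatine marker-negative cells, and *Ckb*, brain-type creatine kinase, was at 24.0 and 19.8 CPM. Within the creatine library *Ckb* was uneven, with a log2 ratio of 1.56 for marker-negative against marker-positive cells. Few UMIs stood behind it, as all 5 creatine metabolism genes summed to 13 UMIs in the creatine marker-positive cells. Creatine marker-negative cells with *Itga1* or *Cxcr6* held it at 61.4 CPM (56 UMIs) and those without at 6.13 CPM (17 UMIs). That log2 ratio was 3.32 (2.52 to 4.20), and control had too few *Ckb* UMIs for this split. In creatine, 5 cells held 39.7% of the marker-negative *Ckb* UMIs. Macrophage-gated creatine cells held the 5 creatine metabolism genes at 444 CPM, led by *Ckb*, against 22.3 CPM in creatine marker-negative cells. No alternative was run for *Ckb* in this split, and the part of macrophage RNA in it was not tested. Glycolysis genes had a median of -0.10 and immediate early and heat shock genes 0.23. Receptors, cytokine receptors, homing genes, transcription factors, and cytokines and chemokines had medians of 0.06, -0.05, 0.18, 0.02 and 0.12.

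The largest differences between the libraries were partly shared with other cells. By the rule of size, *Casp4*, *Rnaset2a*, *Casp1*, *Usp18*, *Hsph1*, *Isg15*, *Cdk2ap1*, *Tmem209*, *Jun* and *Nr4a1* were the furthest above control. *Casp4*, an inflammatory caspase (chr9:5308828-5336783), was at 16.0 and 51.8 CPM, a log2 ratio of 1.70 (1.14 to 2.30), and cells outside the NK gate gave 1.61 (1.53 to 1.70). *Casp1*, the adjacent gene (chr9:5298517-5307265), gave 1.36 (0.83 to 1.92) in marker-negative cells and 1.43 (1.36 to 1.51) outside the gate. *Jun*, an immediate early gene, was at 36.8 and 79.8 CPM, 1.12 (0.73 to 1.52), while cells outside the gate gave -0.11 (-0.15 to -0.07).

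Among those furthest below control were *Gzmf*, *Hist1h2ap*, *Ccl1*, *Hist1h2ae*, *Ube2c*, *Hist1h4h*, *C1qb*, *C1qc* and *Lgmn*. *Gzmf*, encoding granzyme F, was at 65.1 and 2.99 CPM, a log2 ratio of -4.45 (-5.49 to -3.56), and cells outside the NK gate gave -2.20 (-2.24 to -2.16). In control, 5 of the 29 cells with *Gzmf* held 80.3% of its UMIs. *Hist1h2ap* had 818 UMIs in control and 221 in creatine, a log2 ratio of CPM of -2.86, against -2.02 outside the gate. Here too few cells carried the counts: 5 cells held 72.9% of the control and 67.9% of the creatine marker-negative *Hist1h2ap* UMIs. For *Ccl1* the top 5 cells held 90.3% and 93.2%. Macrophage markers moved with this comparison too, with 5 of 6 at least 1.5-fold lower and a median of -1.23. Without cells of at least 5 macrophage and dendritic cell UMIs the interferon median was 0.31 and the log2 ratio of *Casp4* 1.71. *C1qb* and *C1qc* are macrophage complement genes and *Lgmn* encodes a protease abundant in macrophages.

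**Figure D5:**
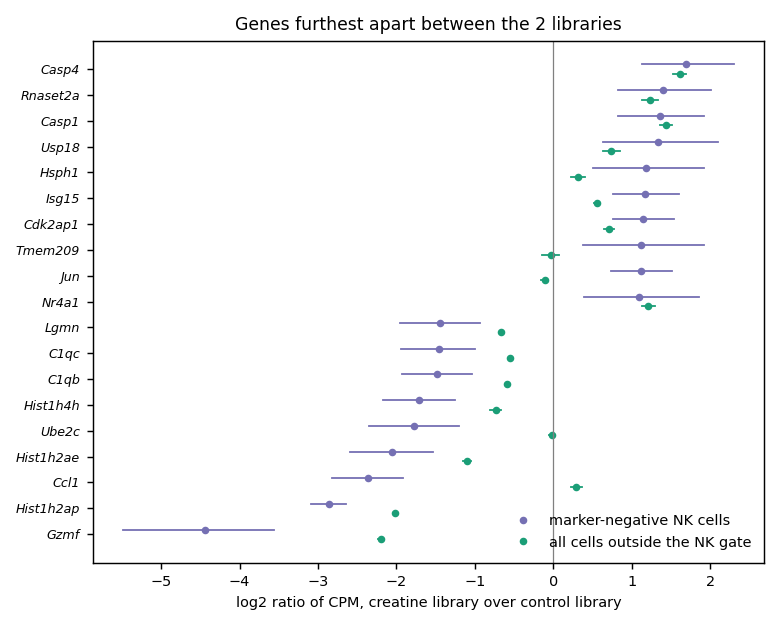
Log2 ratio of CPM, creatine library over control library (x axis), for genes furthest above and below control (y axis) in marker-negative NK cells (purple) and the same genes in all cells outside the NK gate (green); points are the ratio and lines the exact 95% interval from counting. Casp4, Casp1, Rnaset2a and Nr4a1 have like ratios in both, while Jun, Tmem209, Ube2c and Ccl1 do not share direction or size with the other cells.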

How the data were processed

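Per the labels, the authors processed the libraries with Cell Ranger 3.0.2 on mm10 (GRCm38) and deposited, per library, a filtered matrix of whole-number UMI counts for 31053 genes. The control library held 7649 barcodes and 80434564 UMIs and the creatine library 6503 and 72898494. Cells with over 25% mitochondrial UMIs were removed (408 and 274). Groups follow the title and treatment label. The control record's protocol text also describes creatine injection. For cell isolation the study's methods also name day 10, and a legend names 5 mice per group.

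UMIs of each class of cells were summed per library and expressed as CPM of the pool's UMIs. With 1 library per group no test was run. Ratios carry exact 95% conditional binomial intervals, shares exact Clopper-Pearson intervals and CPM exact Poisson intervals (scipy 1.17.1). PCR duplicates were collapsed by UMI. Genes needed 50 UMIs in a pair of pools, and a fold of 1.5 was the mark of size. Macrophage-gated cells had at least 5 UMIs of *C1qa*, *C1qb* and *C1qc* and none of *Ncr1*, *Klrb1c* or the Cd3 genes, so *Ncr1* and *Klrb1c* are absent from them by construction.

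Named genes were, in each direction, the 10 ranked highest by the smaller absolute log2 ratio of the 2 libraries with the same sign in both (marker-negative against marker-positive), the 10 furthest apart between libraries with at least 100 UMIs and an interval excluding 0, and list members the text discusses, leaving out of the first 2 gate, mitochondrial, ribosomal protein and unnamed predicted genes. The members and lists were chosen with earlier results of these data known. Lists held 22 groups of genes besides the gate. Shares of cells with a UMI were taken after thinning each cell to 2000 UMIs. Scrublet (scanpy 1.11.5) marked 2 control and 8 creatine cells as doublets, too few to be credible, so none was removed, and the top 6% of scores were left out as an alternative. Other alternatives were depth ranges, stricter gates, equal weight per cell, TMM factors (edgeR 4.0.16) and other low-count filters. Another left out cells with UMIs of 2 or more dividing-cell genes, which removed 69.2% of control and 77.1% of creatine marker-negative cells. Alternatives on myeloid RNA, *Trac*, 5 dividing-cell genes and *Itgam* were chosen after seeing the data. Gene positions are from GENCODE M21. Interval and thinning code was tested on simulated data. Some genes that these rules name are not reported here.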

Additional observations from a re-analysis of the deposited data

Results flagged for a closer look

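The dendritic cell marker list pointed in opposite directions in the 2 libraries. The median log2 ratio of marker-negative to marker-positive NK cells was -1.71 in control and 0.32 in creatine, over the 3 of 10 genes with enough UMIs, and the difference was not tested. One control marker-positive cell held 67.3% of that pool's *Cd74* UMIs.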

How the results depend on the processing

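No paired analysis was possible because each group is 1 library, and for the same reason no library could be left out. In control, the marker-negative share of NK cells (72.1%) was 80.1% without cells of 2 or more dividing-cell genes, 85.1% with the gate read after thinning and 86.1% without *Itgam* in the gate. In creatine (57.3%) it was 44.0% without cells of 2 or more T cell receptor UMIs, 74.1% after thinning and 75.6% without *Itgam*. For the marker-negative against marker-positive medians, maturation in control (-0.22) was 0.26 without *Itgam* and -0.73 after thinning, and in creatine (-0.86) it was -0.60 with 1 UMI counted as positive, -1.12 with few T cell receptor UMIs, -0.95 with few dividing-cell genes, -1.0 after thinning and -0.76 without mitochondrial and ribosomal genes. The immature list in control (0.61) stayed above 0 but ran from 0.28, short of 1.5-fold, to 0.87 over the alternatives. The immature list in creatine (0.73) was 0.92 at 4000 to 8000 UMIs, 0.89 without *Itgam*, 0.48 with 1 UMI counted as positive, 0.86 with equal weight per cell, 1.04 with few T cell receptor UMIs, 1.51 with few dividing-cell genes, 1.55 after thinning, 0.93 without any Cd3 UMI and 0.62 without *Trac*. The ILC1-like list in creatine (0.14) was 0.61 at 4000 to 8000 UMIs, -0.26 without *Itgam*, 0.50 with equal weight, 0.76 with few dividing-cell genes and 1.11 after thinning. Between libraries, maturation (0.14) was 0.42 at 4000 to 8000 UMIs and 0.62 with few T cell receptor UMIs, cytotoxic genes (0.14) were 0.32 with few T cell receptor UMIs and 0.25 with few dividing-cell genes, interferon-stimulated genes (0.36) were 0.53 and 0.19 at 4000 to 8000 UMIs and with few T cell receptor UMIs, and dividing cells (-0.36) were 0.02 at 4000 to 8000 UMIs, -0.10 without cells of 5 or more dividing-cell genes and 0.09 without myeloid RNA. Few control marker-positive cells stood behind some values: 18 without *Itgam* or after thinning, 9 with few T cell receptor UMIs and 8 with few dividing-cell genes. The T cell receptor setting also left only 89 control and 55 creatine marker-negative cells. The causes were not tested.

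Thinned shares moved with the depth. At 1000 UMIs and without thinning, *Itga1* was seen in 2.88% and 6.68% of control and 2.11% and 11.9% of creatine marker-negative cells, *Cxcr6* in 3.85% and 12.7%, and 4.05% and 13.3%, and *Cd27* in 16.4% and 48.2%, and 15.0% and 52.7%.

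Of the named genes, those lower in marker-negative cells reversed most. In control, *Ccl1* was at 3.60 at 4000 to 8000 UMIs, 3.76 with few T cell receptor UMIs, 3.41 and 5.06 without cells of 2 or of 5 dividing-cell genes, 4.25 without myeloid RNA and 3.69 after thinning. *Hist1h2ap* was at 0.03 with few dividing-cell genes, 1.07 without myeloid RNA, 1.14 after thinning and 0.69 without Cd3, and *Hist1h1b* at 1.70, 1.67 and 1.15 under the last 3. After thinning *Nusap1* was at 1.01, *Gadd45b* at 1.70 and *Ccdc184* at 1.98. In creatine, *Tmsb15a* was at 0.08 and *Gadd45b* at 0.25 without cells of 5 dividing-cell genes, *Ccdc184* at 0.28 without myeloid RNA, *Gadd45b* at 1.05, *Ccdc184* at 2.60 and *Ccl1* at 2.91 after thinning, *Birc5* at 0.33, *Ccl1* at 0.54, *Hist1h1b* at 0.91 and *Hist1h2ap* at 1.05 without Cd3, and *Ccl1* at 0.32 without *Trac*. A gene with too few UMIs in the pair of pools under an alternative was not evaluated there, so a reversal could not be seen. Where evaluated, none of the 10 genes named as higher reversed, nor did any gene named between libraries. In control 4 of those 10 fell short of 1.5-fold under 1 alternative each. *Il7r* was at 0.23 after thinning and *Gpr183* at 0.30 with equal weight. With 1 UMI counted as positive, *Sult2b1* was at 0.45 and *Xcl1* at 0.49. The alternatives on myeloid RNA, *Itgam*, *Trac* and 5 dividing-cell genes, and all of those for the *Itga1* or *Cxcr6* split, were chosen after seeing the data. In that split *Eomes*, *Gzma*, *Klf2*, *Klra4*, *Inpp4b*, *Il7r*, *Tnfsf10* and *Gzmc* kept their direction in both libraries, but at 4000 to 8000 UMIs *Klf2* was at -0.33 and -0.44 and creatine *Gzmc* at 1.14. Between libraries, *Isg15* (1.17) was 0.21 without cells of 2 or more dividing-cell genes.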
